A study of Mus musculus with 4 samples.

Results

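The core of the PI3K, AKT and mTOR pathway was described in hair follicle stem cells that lack the microRNA miR-205 and in wild-type cells. It was taken as 35 named genes for receptors and adaptors, kinases, regulatory subunits, phosphatases, FOXO factors and mTOR complex components. A gene was measured by the probe sets whose annotation gives that symbol and no other, and was represented by whichever of them was brightest on average over the 4 arrays. 34 of the 35 genes had such a probe set, out of 18193 genes represented in the same way. Rps6kb1, the S6 kinase gene, was not analysed here.

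The study compared messenger RNA between miR-205 knockout (KO) and wild-type (WT) hair follicle stem cells, the cells that renew the follicle, with 2 arrays of each genotype. All mice had a C57BL/6 background, and the cells were sorted by flow cytometry from skin at postnatal day 4. The labels name neither the knockout allele nor the sort gate. The titles call the replicates biological, but whether each was 1 animal or a pool is not given, so the p-values speak only of the spread among these 4 samples. A treatment text shared by all samples describes doxycycline induction of another microRNA, miR-203, and no group was taken from it.

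In this pathway a receptor such as the IGF1 receptor recruits PI3K, whose lipid product PIP3 brings the kinase AKT to the plasma membrane. AKT then holds FOXO transcription factors outside the nucleus and relieves the TSC complex's block of RHEB, which switches on mTORC1 and protein synthesis. Lipid phosphatases, AKT phosphatases and LKB1 (encoded by Stk11) work against these steps. In the hair follicle the pathway is known for promoting the activation of stem cells from rest.

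The microRNA removed in the KO is shown because every comparison here rests on its absence. Its main mature strand lies at chr1:193507503-193507524 on the minus strand of GRCm38.p6 (RefSeq), and capitals mark the seed, bases 2 to 8, which pairs with target messengers.
mmu-miR-205-5p: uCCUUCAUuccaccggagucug
The mature strand was not measured on these arrays. Its host transcript Mir205hg read 6.52 and 6.13 in KO and 5.81 and 5.30 in WT (RMA value, log2, arrays 1 and 2), so both KO values were the higher ones. The WT values were near the background mark of 5.63 defined below, with WT 2 under it. The difference was 0.77 (SE 0.26, limma adjusted p = 1), and since the deleted part of the locus is not given in the labels, this value is no check of the genotype.

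Several facts of the whole series bear on every value below. Of the follicle stem cell markers 10 of 11, and of the basal keratinocyte markers 8 of 8, were above the background mark defined in the next paragraph on all arrays. So were 11 of 12 fibroblast and 8 of 9 differentiated epidermis markers, so the mark does not single out stem cells. Krt15, a marker of the follicle bulge, read 13.62 to 14.05, and the bulge marker Cd34 read 6.87 and 6.69 in KO and 8.32 and 6.20 in WT, in the array order of the fibroblast markers. KO and WT arrays also differed in sex-linked RNA. Xist, the RNA of the inactive X chromosome, fell by 7.88 in KO (limma adjusted p = 0.038) and the Y-linked Eif2s3y rose by 6.63 (limma adjusted p = 0.038), so genotype and sex cannot be told apart here. These were the only 2 of 18193 genes past an adjusted p of 0.05. Dermal fibroblast markers were highest on WT 1 for 11 of 12 measured genes, with KO 1 second. Their summed linear level was 25916 on KO 1, 13294 on KO 2, 49018 on WT 1 and 9733 on WT 2. For markers of differentiated epidermis the list mean separated by genotype, at 9.57 and 9.64 in KO and 9.35 and 9.12 in WT. Their summed linear level was 18643 and 19117 in KO and 14394 and 14267 in WT. Both KO arrays lay above both WT arrays for 4 of the 9 (8.2% of all genes), Krt1, Krt10, Krtdap and Calm4. None of these passed the adjusted threshold. Genotypes overlapped in Lor, Flg, Ivl, Sbsn and Dmkn, with Ivl highest on WT 1 and Dmkn on WT 2. The part of differentiated cells in the members' differences was not tested. In sorted cells measured in bulk, fewer cells of a type and less RNA per cell cannot be told apart.

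By its brightest probe set, each of the 34 measured members was bright in these cells, although for Pik3cd the other probe sets were not, as given below. Bright means above 5.63 on each of the 4 arrays, the 95th percentile of 39 olfactory receptor genes, which have little RNA in skin; 62.9% of all genes met it. The members' median level over the arrays was 8.58, against 6.88 for the median gene. Probe sets bind with different strength, so their values are not an order of abundance among genes. The plot of levels by array shows every member.

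**Figure D1:**
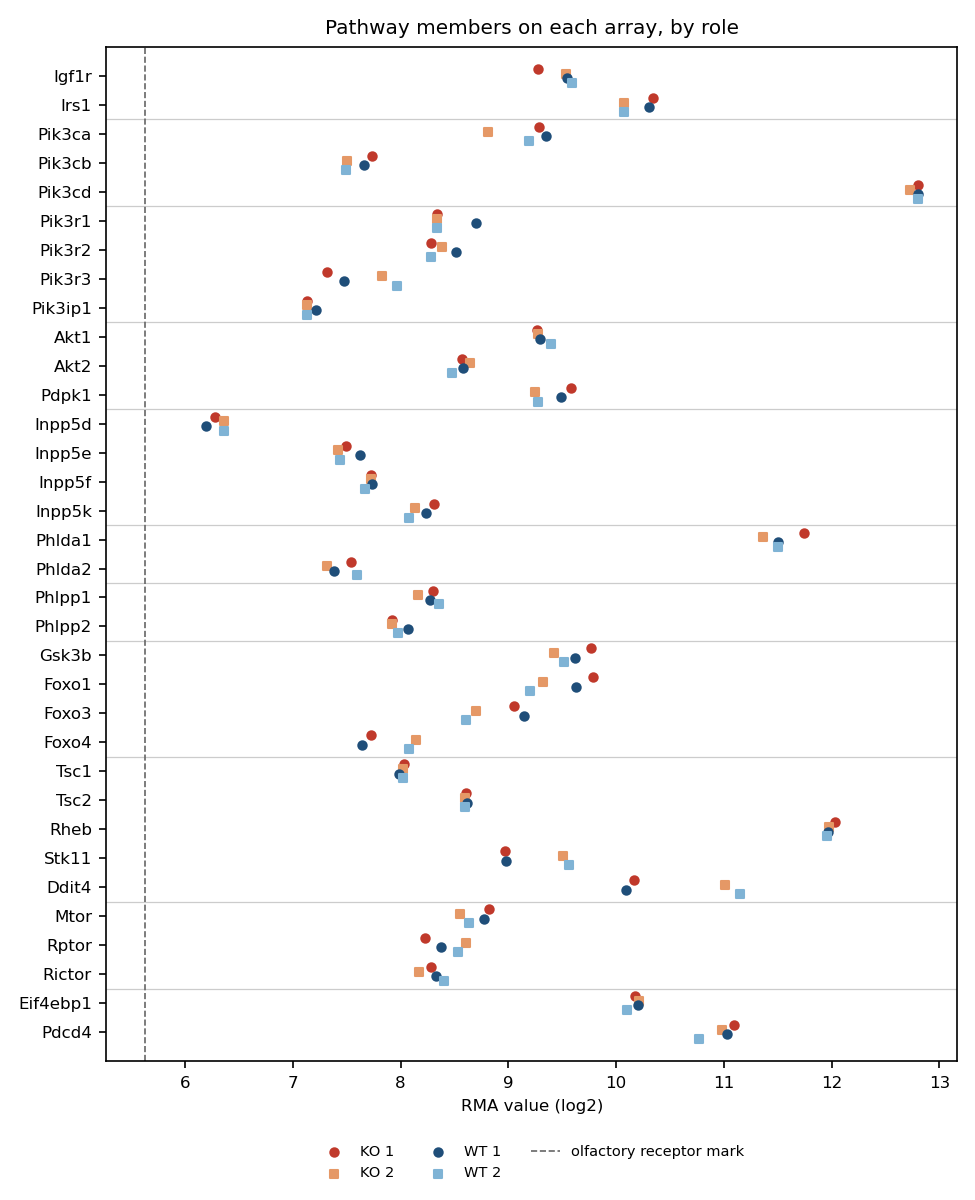
RMA values (log2) of 34 pathway members on the 4 arrays, in order of role (grey lines separate roles), with circles for arrays numbered 1 and squares for arrays numbered 2. All points lie to the right of the dashed background mark at 5.63, and in Ddit4, Stk11, Foxo4 and Pik3r3 the symbols separate by array number rather than by genotype colour.

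No member passed the test for a difference between KO and WT. At a limma adjusted p of 0.05, 0 of 34 passed, against 0.011% of all genes, and every member's adjusted p was 1. At an unadjusted p under 0.05 there were again 0 members (1.88% of all genes), the smallest being 0.13 for Rictor. The members' median difference was -0.01 on the log2 scale, with 15 members higher and 19 lower in KO; the median of all genes was 0.01. Without KO 2, or without WT 1, the members' median was 0.01 too. No member was 1.5-fold apart (0.627% of all genes were), the largest difference being -0.22 for Pik3ca.

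How large a change these arrays leave possible differs among members. For 26 of 34 the 95% interval of the difference lay inside 1.5-fold either way, a share close to the 75.2% of all genes. The narrowest belonged to Tsc2 and Tsc1, at -0.13 to 0.12 and -0.10 to 0.15. Each holds for the brightest probe set only, where KO 2 and WT 2 had equal values. A dimmer Tsc1 probe set gave 0.21. The 8 members with wider intervals were Pik3ca, Pik3r1, Pik3r3, Foxo1, Foxo3, Foxo4, Stk11 and Ddit4, and for Ddit4 the interval ran from -1.75 to 1.69. Such intervals show what was not measured precisely and do not show equality. Both KO arrays lay below both WT arrays for 5 members (5.7% of all genes), namely Igf1r, Pik3cd, Akt1, Phlpp2 and Rictor. Both lay above for 1 member, Rheb (8.2% of all genes).

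**Figure D2:**
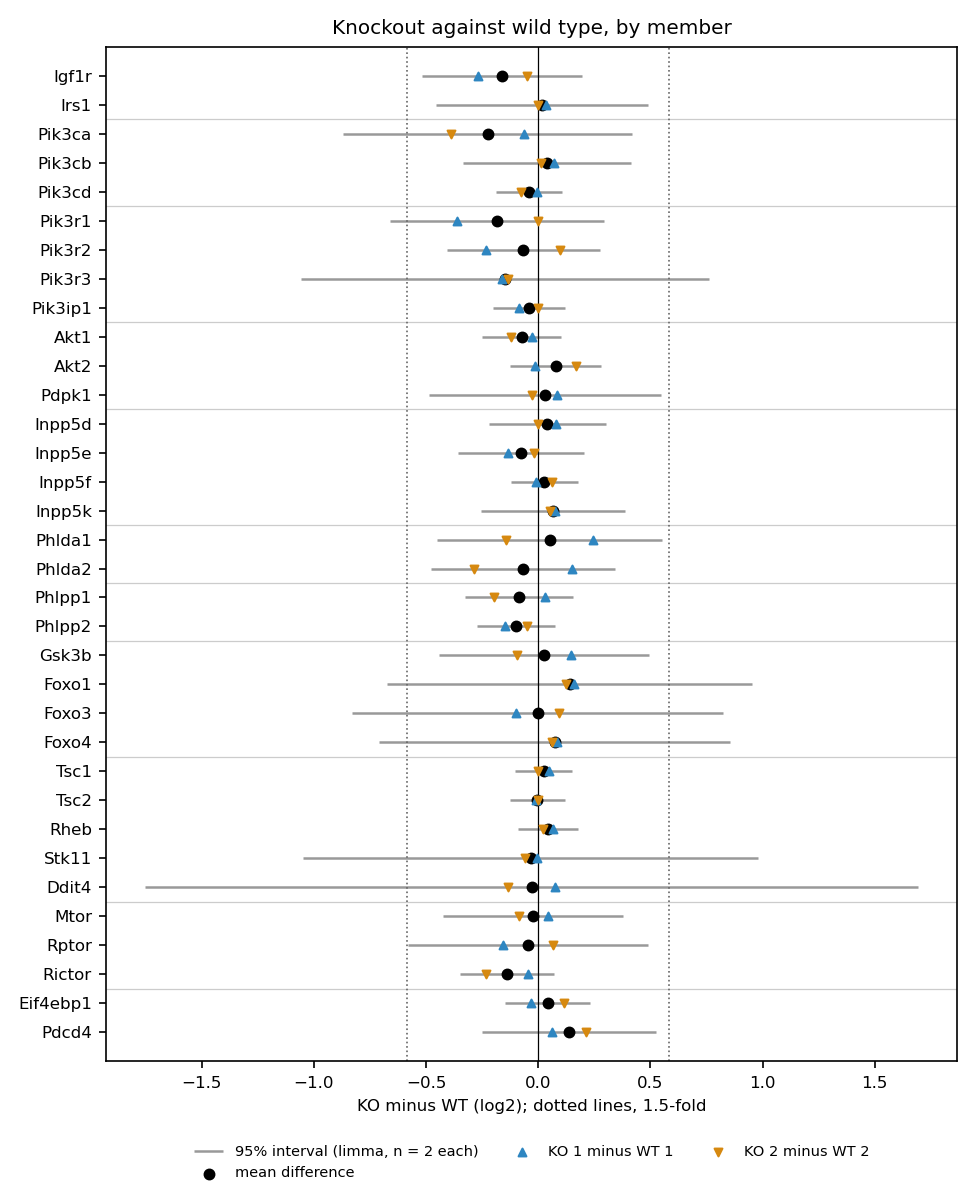
KO minus WT (log2) for each member: black points are means of 2 KO and 2 WT arrays, bars the 95% limma interval, triangles the differences within array numbers 1 and 2, and dotted lines 1.5-fold. No bar excludes 0, and the bars of Ddit4, Stk11 and Pik3r3 are wide although the triangles of each lie close together beside the bar's width. Both triangles of Pik3r3 lie below 0, at -0.16 and -0.14.

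At the top of the pathway, Igf1r, the receptor for insulin-like growth factor, read 9.28 and 9.54 in KO and 9.54 and 9.59 in WT. KO 1 was the low array, and KO 2 lay just below the WT values, with a difference of -0.16 (SE 0.11, limma adjusted p = 1). Igf1r has 5 probe sets, and the 4 bright ones differed by -0.19 to -0.12, all lower in KO; the fifth read 5.60 on every array. Probe sets of 1 gene share the same RNA and are not replicates. Irs1, the adaptor that links the receptor to PI3K, read 10.34 and 10.07 in KO and 10.31 and 10.07 in WT. Its values paired by array number and not by genotype (difference 0.02, SE 0.15).

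The class I catalytic subunits are the lipid kinases p110 alpha, beta and delta. Pik3ca (alpha) read 9.29 and 8.81 in KO and 9.35 and 9.20 in WT, with KO 2 alone low (difference -0.22, SE 0.21). 5 of its 6 probe sets were bright, and all 5 were lower in KO, by -0.30 to -0.02. The only probe set of Pik3cb (beta) read 7.73 and 7.50 in KO and 7.66 and 7.49 in WT, so the genotypes interleaved (0.04, SE 0.12).

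Pik3cd, the delta subunit best known from leukocytes, depended on the probe set chosen. Its brightest read 12.80 and 12.73 in KO and 12.81 on both WT arrays (difference -0.04, SE 0.05). The 5 others had means of 3.24 to 4.77 and were below the background mark on every array, among them both of those that the annotation ties to a RefSeq messenger of the gene. The gap of 8.01 between the brightest and the next probe set is one of the widest on the platform: 11 of 9010 genes with at least 2 probe sets (0.122%, Pik3cd included) had a gap that large, and the median gap was 1.02. Of 15 immune markers in the same libraries, 9 were below the mark on all arrays, including Ptprc (CD45) at 3.51 to 3.55. Cd74, Cd3e, Csf1r and Laptm5 were above it on all 4 arrays, at 5.79 to 7.22, and Cd68 and Lyz2 on some. The summed linear level of all 15 was 594 and 683 in KO and 566 and 719 in WT. Whether the brightest probe set measures the Pik3cd messenger was not tested, and no expression of the delta subunit is read from it.

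**Figure D3:**
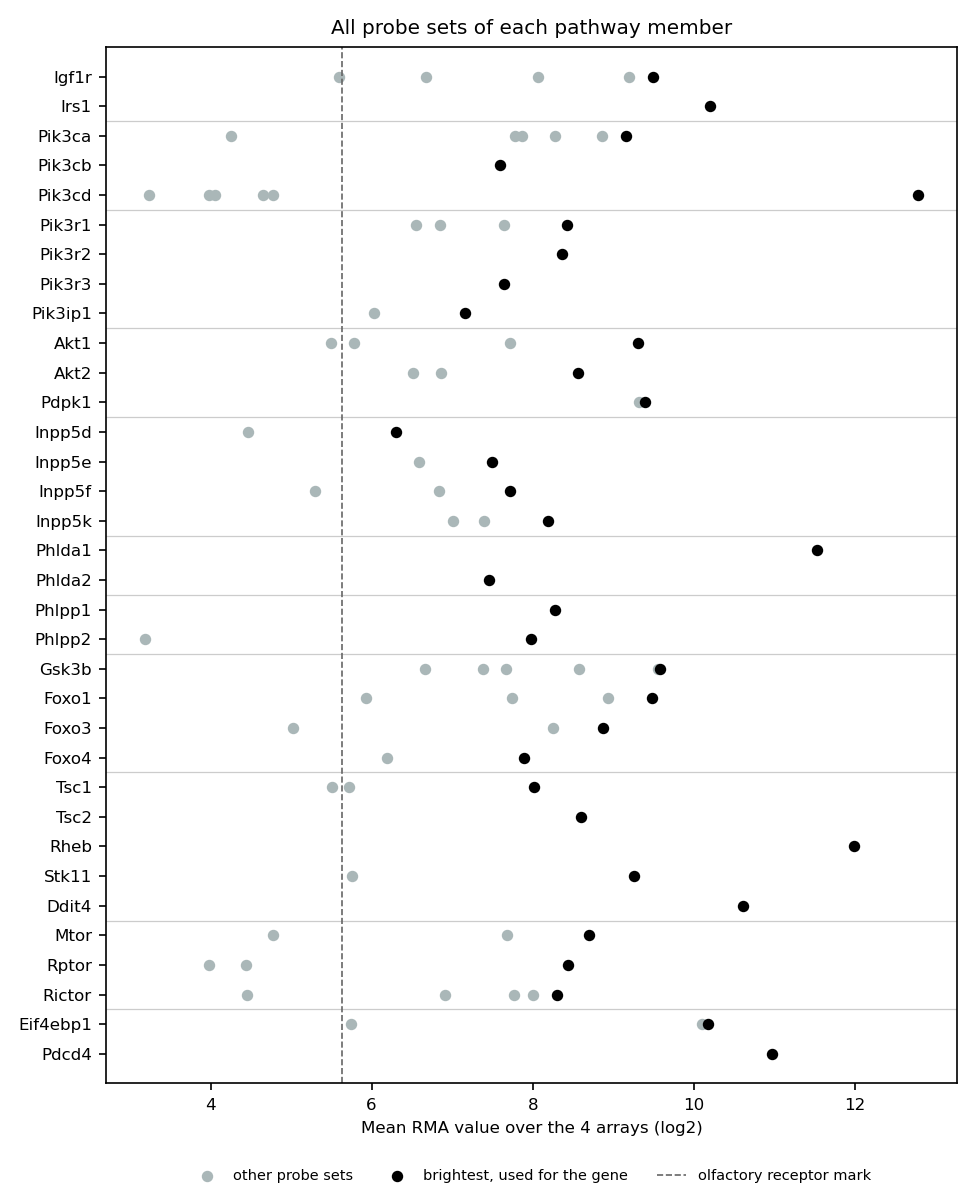
Mean RMA value (log2, 4 arrays) of all 89 probe sets of the 34 members, with the probe set used for each gene in black and the others in grey; the dashed line is the background mark. For Pik3cd 1 probe set stands at 12.79 and 5 lie left of the mark, whereas other PI3K catalytic and regulatory subunits have most of their probe sets to its right.

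The regulatory subunits stabilise the catalytic ones and hold them inactive until a receptor binds. Pik3r1 (p85 alpha) read 8.34 on both KO arrays and on WT 2, and 8.70 on WT 1. That array alone made the difference of -0.18 (SE 0.15), and it is the array with the highest fibroblast markers, whose part in the value was not tested. Pik3r2 (p85 beta) read 8.28 and 8.38 in KO and 8.52 and 8.28 in WT, again with WT 1 highest (-0.07, SE 0.11). Pik3r3 (p55 gamma) read 7.31 and 7.83 in KO and 7.47 and 7.96 in WT, and here the arrays numbered 2 were high in both genotypes (-0.15, SE 0.29). Pik3ip1, a transmembrane protein that restrains p110, read 7.13 on 3 arrays and 7.22 on WT 1 (-0.04, SE 0.05). All 4 of these differences were below 0 by the brightest probe set, and none passed. Other bright probe sets went both ways: for Pik3r1 they gave -0.23, 0.10 and -0.04, and for Pik3ip1 0.08. Without WT 1 the differences of Pik3r1 and Pik3ip1 were 0.00 and that of Pik3r2 was 0.05. Equal values on several arrays were frequent in the deposited table: 10 of 34 members and 43% of all genes had at least 2 equal arrays.

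AKT kinases stand at the centre of the pathway. Akt1, the widely expressed isoform, read 9.27 and 9.28 in KO and 9.30 and 9.40 in WT. The groups did not overlap, but KO 2 and WT 1 were 0.02 apart and the difference was -0.07 (SE 0.06, limma adjusted p = 1). Its second brightest probe set, with a mean of 7.72, differed by 0.02. Akt2, the isoform tied to insulin response, read 8.57 and 8.64 in KO and 8.58 and 8.47 in WT (0.08, SE 0.06). By the brightest probe sets the signs of Akt1 and Akt2 were opposite, and both intervals included 0. Their other bright probe sets went both ways, at 0.02 and -0.02 for Akt1 and 0.06 and -0.06 for Akt2. Pdpk1, which encodes the activating kinase PDK1, read 9.58 and 9.25 in KO and 9.49 and 9.27 in WT, so arrays numbered 1 were higher in each genotype (0.03, SE 0.16).

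Inositol 5-phosphatases remove a phosphate from PIP3 or related lipids. Inpp5d (SHIP1), known mainly from blood cells, read 6.28 and 6.36 in KO and 6.20 and 6.36 in WT, which made it the only member under the median gene's 6.88. Its other probe set was below the mark, with a mean of 4.47. Inpp5e, a phosphatase of the primary cilium, read 7.49 and 7.42 in KO and 7.63 and 7.44 in WT (-0.08, SE 0.09). Inpp5f, a phosphoinositide phosphatase of endosomes named with them, read 7.73 on both KO arrays and 7.74 and 7.66 in WT (0.03, SE 0.05). Inpp5k (SKIP) read 8.31 and 8.13 in KO and 8.23 and 8.08 in WT (0.06, SE 0.10). Genotypes overlapped in all 4 phosphatases.

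Phlda1 and Phlda2 encode small PH domain proteins, of which PHLDA2 can bind membrane phosphoinositides. Phlda1, also a follicle stem cell marker, read 11.74 and 11.36 in KO and 11.50 on both WT arrays. The KO arrays stood on opposite sides of WT, with a mean difference of 0.05 (SE 0.16) that turned to -0.14 without KO 1 and was 0.24 without KO 2. Phlda2, an imprinted gene, read 7.54 and 7.31 in KO and 7.38 and 7.60 in WT (-0.07, SE 0.13), again with signs that differ between the array numbers.

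PHLPP phosphatases take the activating phosphate off AKT's tail. Phlpp1 read 8.30 and 8.16 in KO and 8.27 and 8.36 in WT (-0.09, SE 0.08). Phlpp2 read 7.92 on both KO arrays and 8.07 and 7.97 in WT, so the groups did not overlap (-0.10, SE 0.06, limma adjusted p = 1). Its second probe set, at a mean of 3.19, was below the mark.

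FOXO factors, the transcription factors that AKT keeps out of the nucleus, differed more between array numbers than between genotypes. Foxo1 read 9.79 and 9.32 in KO and 9.63 and 9.20 in WT (0.14, SE 0.26). Foxo3 read 9.05 and 8.70 in KO and 9.15 and 8.61 in WT (0.00, SE 0.26), which put arrays numbered 1 above those numbered 2 for both genes. Foxo4 ran the other way, at 7.72 and 8.14 in KO and 7.64 and 8.08 in WT (0.07, SE 0.25). Foxo4 is the only X-linked member. It differed by 0.08 and 0.06 within the numbers, and the part of sex in these values was not tested. Gsk3b, a kinase that AKT inhibits, read 9.77 and 9.42 in KO and 9.62 and 9.52 in WT (0.03, SE 0.15), with 4 of its 6 bright probe sets lower and 2 higher in KO. All 6 read lower on number 2 than on number 1 in both genotypes, the widest by -0.93 in KO and -0.78 in WT.

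Both TSC genes were even over the arrays by their brightest probe sets. Tsc1 read 8.04 and 8.02 in KO and 7.99 and 8.02 in WT, and Tsc2 read 8.61 and 8.60 in KO and 8.62 and 8.60 in WT. Their differences were 0.02 (SE 0.04) and 0.00 (SE 0.04). A dimmer Tsc1 probe set, above the mark on 3 arrays, gave 0.21, and the mean of the gene's 3 probe sets gave 0.07. Rheb, the GTPase that TSC turns off and that activates mTORC1, read 12.03 and 11.98 in KO and 11.96 on both WT arrays; the groups did not overlap, but the difference was 0.04 (SE 0.04, limma adjusted p = 1).

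Ddit4 and Stk11 feed stress and energy state into TSC, and they showed the widest spread between array numbers. Ddit4 (REDD1), which activates TSC under stress, read 10.17 and 11.01 in KO and 10.09 and 11.15 in WT. It was higher on the arrays numbered 2 by 0.85 in KO and by 1.06 in WT, while KO minus WT was 0.08 and -0.13 within the numbers. Stk11 read 8.97 and 9.51 in KO and 8.98 and 9.57 in WT, which is 0.53 and 0.59 higher on the arrays numbered 2. A control probe set for 18S ribosomal RNA separated the numbers too, at 11.51 on KO 1, 11.59 on WT 1, 9.46 on KO 2 and 9.40 on WT 2. For Actb, the 3′ probe set minus the 5′ one, a measure that grows as RNA is degraded or labelled incompletely, gave 0.67 and 0.63 on the arrays numbered 1 and 0.31 and 0.39 on those numbered 2. Their part in the spread of Ddit4 and Stk11 was not tested.

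Between the numbers, 8 members were higher on number 2 in both genotypes and 13 were higher on number 1. That is 21 of 34 with the same sign, against 57.3% of all genes. The number difference exceeded the genotype difference for 20 members (54.3% of all genes) and reached 1.5-fold for 1, Ddit4 (2.78% of all genes). These shares are near the background and are not particular to the pathway. The members that were 0.4 or more apart were Ddit4, Stk11, Pik3r3 and Foxo4 on the number 2 side and Foxo1 and Foxo3 on the number 1 side. The other 4 bright probe sets of Foxo1 and Foxo3 gave smaller values for number 2 minus number 1, at -0.27 to 0.00 in KO and -0.13 to -0.04 in WT. The order of fibroblast markers, WT 1 highest and KO 1 second, was shared by Pik3ca, Inpp5e, Foxo3 and Tsc2, 4 of 34 members against 8.76% of all genes.

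**Figure D4:**
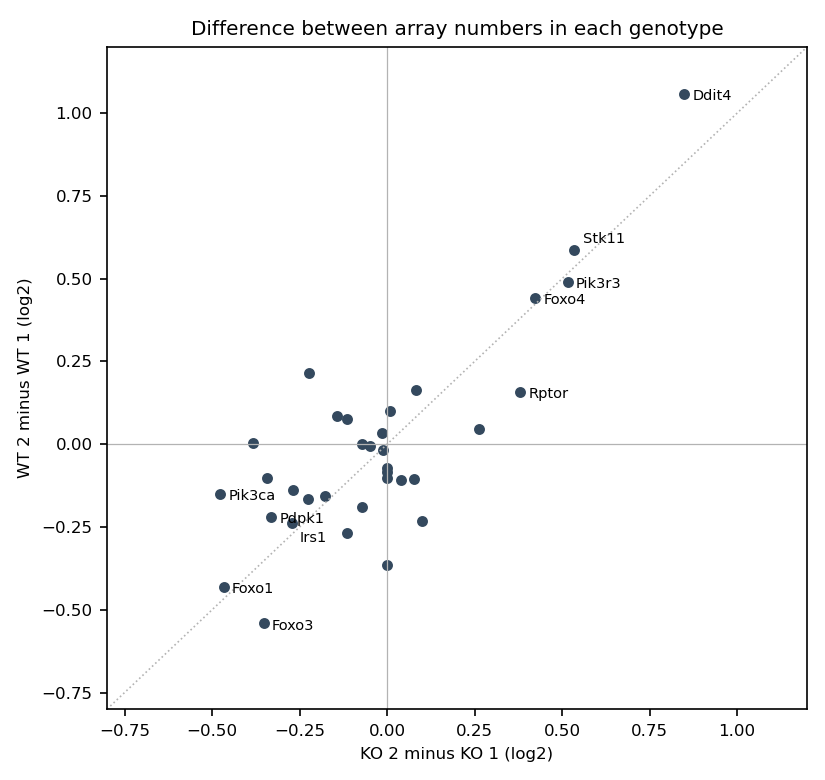
Array number 2 minus number 1 (log2) in KO (horizontal) and in WT (vertical), 1 point per member, with the dotted line where both are equal; members at least 0.25 apart on average are named. Ddit4 lies at 0.85 and 1.06, Stk11, Pik3r3 and Foxo4 lie near the line at the upper right, and Foxo1 and Foxo3 lie at the lower left.

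The sequence before the start of the genes that moved together between the numbers is given as context. The 250 bases before the RefSeq start (GRCm38.p6) are printed for Ddit4 (chr10:59951771-59952020, minus strand), Stk11 (chr10:80115545-80115794, plus strand) and Pik3r3 (chr4:116221166-116221415, plus strand), which were high on number 2, and for Foxo1 (chr3:52268087-52268336, plus strand), which was high on number 1. Capitals mark ACGTG on either strand, a form of the core of the hypoxia response element. The Pik3r3 and Foxo1 windows hold no ACGTG, and other forms of the core were not searched.
Ddit4: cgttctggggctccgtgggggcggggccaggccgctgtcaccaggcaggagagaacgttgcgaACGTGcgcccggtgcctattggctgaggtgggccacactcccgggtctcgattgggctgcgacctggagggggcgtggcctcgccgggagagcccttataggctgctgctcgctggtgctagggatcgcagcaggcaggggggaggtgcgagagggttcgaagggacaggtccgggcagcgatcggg
Stk11: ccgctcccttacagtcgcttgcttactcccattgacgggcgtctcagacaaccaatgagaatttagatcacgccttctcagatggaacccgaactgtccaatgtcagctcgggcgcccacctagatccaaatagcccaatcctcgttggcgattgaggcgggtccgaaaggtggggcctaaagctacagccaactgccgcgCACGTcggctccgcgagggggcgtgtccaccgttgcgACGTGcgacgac
Pik3r3: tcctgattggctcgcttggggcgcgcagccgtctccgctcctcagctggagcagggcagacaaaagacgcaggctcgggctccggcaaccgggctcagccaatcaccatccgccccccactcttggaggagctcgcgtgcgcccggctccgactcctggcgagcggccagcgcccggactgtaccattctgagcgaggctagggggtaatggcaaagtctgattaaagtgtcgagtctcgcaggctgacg
Foxo1: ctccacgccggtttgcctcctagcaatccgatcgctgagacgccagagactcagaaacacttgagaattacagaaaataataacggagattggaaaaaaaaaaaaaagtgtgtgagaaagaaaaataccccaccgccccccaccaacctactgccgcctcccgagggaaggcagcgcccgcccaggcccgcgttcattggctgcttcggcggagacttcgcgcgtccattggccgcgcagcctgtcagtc
Windows were found for 32 of the 35 genes. ACGTG was present in 7 of the 32 (21.9%), against 17.6% of 17492 windows of the same length before protein-coding genes. Of the 7 holders, 3 (Stk11, Ddit4, Rptor) were higher and 3 (Irs1, Pik3ca, Rheb) lower on number 2 in both genotypes. Akt2 was mixed. Of all 34 members, 8 were higher and 13 lower there, and a link between motif and array number was not tested. Among the 7 holders, CACGTG, which holds ACGTG on both strands, was present in Irs1 and Rheb, 2 of 32 against 6.65% of all. The FOXO motif GTAAACA was present in Akt1 (3.12%, against 2.57% of all) and the ATF4 motif TGATGNAA in Pik3cd (3.12%, against 3.26% of all). A match is a run of letters and not a shown site. Members' windows held a median of 20.5 CpG dinucleotides, against 10 over all windows, and ranged from 1 in Pdpk1 and Pdcd4 to 42 in Igf1r.

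The mTOR complexes had a shared kinase and 2 defining partners on the list. Mtor, the kinase, read 8.82 and 8.55 in KO and 8.78 and 8.64 in WT (-0.02, SE 0.13). Rptor, the partner that recruits mTORC1 substrates, read 8.22 and 8.60 in KO and 8.38 and 8.54 in WT (-0.05, SE 0.17). Rictor, the partner of mTORC2, which phosphorylates AKT's tail, read 8.28 and 8.17 in KO and 8.33 and 8.40 in WT, with no overlap. Its difference was -0.14 (SE 0.07, limma adjusted p = 1), and all 5 of its probe sets were lower in KO, by -0.23 to -0.07, the 4 bright ones included. With the mean of its probe sets the limma unadjusted p was 0.048 and the adjusted p stayed above 0.05.

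Among the outputs of mTORC1, Eif4ebp1, the translation repressor that mTORC1 inactivates, read 10.18 and 10.22 in KO and 10.21 and 10.10 in WT (0.04, SE 0.06). Pdcd4, a repressor of translation initiation that S6 kinase marks for degradation, read 11.09 and 10.98 in KO and 11.03 and 10.77 in WT (0.14, SE 0.12). WT 2 was the low array, and KO 2 lay below WT 1. The pathway acts on both proteins by phosphorylation, which arrays do not measure.

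Other genes of the pathway were read the same way. Of 83 listed, 76 were measured and 64 were bright; 0 passed the adjusted threshold in either direction, and 1 had an unadjusted p under 0.05. That gene was Synj2, a lipid phosphatase of endocytosis, at 6.29 and 6.47 in KO and 6.10 and 5.87 in WT (0.39, SE 0.12, limma adjusted p = 1). The next by unadjusted p among those higher in KO were Deptor, an inhibitor within mTOR complexes (0.35, SE 0.13), the adaptor Pik3ap1 (0.09, SE 0.05), which was below the background mark on every array, and the kinase Sgk3 (0.19, SE 0.13). Among those lower in KO they were the phosphatase Ocrl (-0.17, SE 0.10), the growth factor Igf2 (-0.50, SE 0.29), the adaptor Irs2 (-0.22, SE 0.14) and the AKT substrate Tbc1d4 (-0.19, SE 0.12). Igf2 was highest on WT 1, at 8.45 against 7.47, 7.86 and 7.87 on KO 1, KO 2 and WT 2. Pik3cg, the class I catalytic subunit outside the list, was near the mark at 5.57 to 5.85. Over the 76 genes the median difference was 0.00, with 40 higher and 36 lower in KO.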

How the data were processed

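RNA of sorted cells was labelled with biotin and measured on Affymetrix mouse arrays, 1 per sample. The authors deposited log2 values made with RMA, per the submitters' processing notes; RMA version, probe set definition and scan dates are, in the sources used here, not given. RMA sets all arrays to a like distribution, so changes common to most genes cannot be seen. The values ran from 2.51 to 14.56 without detection calls, and the number of arrays limits the precision.

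Of 45101 probe sets, 34945 had 1 gene symbol in GEO's platform annotation, 932 had several, 9160 had none here and 64 were controls; 34741 matched the GRCm38.p6 RefSeq table by gene identifier. KO was compared with WT over 18193 genes with limma 3.58.1 in R 4.3.3 (lmFit, eBayes, two-sided, no covariate, Benjamini-Hochberg over all genes, threshold 0.05). Moderated tests had 3.07 degrees of freedom. The fit was tested on simulated data with independent arrays and with changes larger than any member's. That run does not cover differences as small as the members'.

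The members, the lists of other pathway genes and of markers, and the tests were chosen with earlier results of these data known. 4-array values were given for members of families, those with an unadjusted p under 0.05, a difference of 0.3 or more, or probe sets of opposite sign (14 of the 23 with several). The others' array values were added after they were seen. Of the other pathway genes, up to 4 per direction of smallest unadjusted p were named, plus missing class members. Marker lists for endothelial cells (8 genes, mean log2 level 5.54 to 5.78), melanocytes (8 genes, 6.46 to 7.00) and muscle (6 genes, 5.03 to 5.22) were also read. The alternatives were other normalizations, a filter on dim genes, other summaries of probe sets, a replicate block, other eBayes settings, other background marks and leaving out each array.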

Additional observations from a re-analysis of the deposited data

How the results depend on the processing

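Under 13 alternatives the count of members past the adjusted threshold stayed at 0, and so did that of other pathway genes; 1 of the 13, Pik3cd as the mean of its dim probe sets, was added after seeing the data. The members' median difference lay between -0.06 and 0.01, and changed sign to 0.01 without KO 2 and without WT 1. Members at a limma unadjusted p under 0.05 numbered 0 to 2. With the mean of probe sets it was Rictor. The others were Phlda1 without either KO array, Igf1r without KO 2, Akt1 without WT 1, and Pik3r1 and Phlpp2 without WT 2. They come from fits that set 1 array against 2, where the lone array is assumed to vary like the pair. That pair was equal for Pik3r1 and Phlpp2 and nearly so for Phlda1 and Akt1, and it read 9.54 and 9.59 for Igf1r. With 1 array on a side, these p-values support no call. Members higher in KO numbered 12 to 18. Of 34 members, 10 kept the sign of their difference under all 13 alternatives, and no share over all genes is given beside this count. Foxo3, Gsk3b, Inpp5d and Tsc2 changed sign most often, under 3 alternatives each. Pik3r1 was 0 without WT 1, Pik3r2 turned to 0.05 there, and Pik3ip1 turned to 0.02 with the mean of probe sets. Over all genes 0 to 3 passed; it was 0 with the replicate block, without any 1 array, and with the mean or each of the probe sets, so the calls of Xist and Eif2s3y were lost there, although with the block their differences were still -7.88 and 6.63.

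Same-numbered arrays deviated together across genes (r = 0.56), and shared their 18S and Actb readings, but the labels do not say what a number stands for, so the arrays were not taken as pairs. With the replicate block 879 genes had a limma unadjusted p under 0.05, against 342 without it, and 0 members did. The SE of Ddit4 went from 0.55 to 0.08 and that of Stk11 from 0.32 to 0.05, with differences of -0.03 for both. The SE of Pik3r3 went from 0.29 to 0.05 (difference -0.15, limma unadjusted p = 0.064 with the block). That of Foxo1 went from 0.26 to 0.05 (difference 0.14, limma unadjusted p = 0.074 with the block). Pik3r3 and Foxo1 had the smallest unadjusted p of the members in that fit.

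All 34 members were above the 90th and 99th percentiles of olfactory receptor genes, 33 were above the median gene on all arrays, and 30 were bright with the mean of probe sets. The share over all genes was taken only at the main mark, where it was 62.9%. These other counts are therefore not read as particular to the members. The number difference exceeded the genotype difference for 23 members with quantile normalization again (67.6%, against 64.6% of all genes) and for 24 with median centring (70.6%, against 65.5%), which moved the median of all genes by 0.01.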
